A study of Homo sapiens with 7 samples.

Results

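The genes described here carry iron into, within and out of cells and sense how much of it is present. They are 10 genes, fixed by symbol: the ferritin chains FTH1 and FTL, the uptake genes TFRC, SLC11A2 and STEAP3, the exporter SLC40A1, the ferritin receptor NCOA4, and the regulators ACO1, IREB2 and FBXL5. Each was taken from the deposited gene table where its symbol matched and its locus lay on chromosomes 1 to 22 or X. All 10 were found among 63655 genes, and all 10 had been tested by the authors. A second NCOA4 entry on an assembly patch was left out by the rule.

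The RNA came from HEK293, an established line of human embryonic kidney cells, here carrying CNBP with a FLAG-HA tag. CNBP is a nucleic acid-binding protein with zinc fingers and a preference for G-rich stretches, and the study asked what its knockdown does. The labels give 3 control knockdown samples and 4 CNBP knockdown samples, all in the same tagged cells. They do not say whether these came from separate cultures. Each control title has a single number, while each CNBP knockdown title has a pair of numbers whose meaning is not given. Whether some knockdown samples are repeats of the same material is therefore unknown. The values are FPKM, fragment counts scaled to transcript length and library size, with 1 pooled value under the heading OE and 1 under siRNA. The siRNA heading was read as CNBP knockdown. The heading OE matches no label, and if it means overexpression of CNBP, every difference below holds both changes. CNBP itself was listed at 579.8 FPKM in OE against 45.5 in siRNA, 12.7-fold lower, with q = 0.00791 in the authors' deposited table.

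No value per sample was used here, so no level has an SD or n, and how deeply each library was sequenced is unknown. Variation among samples enters only through the p- and q-values of the authors' deposited table. A gene was called where its q-value there was under 0.05. As for cell identity, VIM, a mesenchymal filament gene long known in this line, was listed at 398 FPKM in OE against 413 in siRNA. It made up most of a list of 7 genes of kidney and neuronal progenitors, 6 of them averaging 1 FPKM or more, which summed to 551 and 580 FPKM. Within that list the neurofilament gene NEFL rose (35.9 FPKM in OE, 64.7 in siRNA; the authors' deposited table gave q = 0.00791), while the keratin gene KRT18 was listed at 34.5 and 25.03 FPKM and was not called. The 9 erythroid markers summed to 2.22 and 2.08 FPKM and the 6 hepatocyte markers to 1.41 and 0.801 FPKM, with no marker of either list at a mean of 1 FPKM. Red blood cell precursors and liver cells are the classic settings of iron use and of hepcidin.

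Iron reaches most cells bound to transferrin. The transferrin receptor carries it into endosomes, where a reductase converts it for transport into the cytosol. Iron that is not used is stored inside ferritin, a shell of heavy and light chains, and leaves the cell through ferroportin. The iron regulatory proteins IRP1 and IRP2 read the cytosolic supply. When iron is scarce they bind hairpins called iron responsive elements (IRE). A hairpin in the 5' untranslated region (UTR) then blocks translation of the mRNA, while hairpins in the 3' UTR of the transferrin receptor mRNA protect it from decay. The first kind acts on protein output and can leave the mRNA level as it was.

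These hairpins are printed because they are the sites at which the iron regulatory proteins act on several of the 10 genes. A search of GENCODE 29 coding transcripts asked for a bulged C, a stem of 5 bases, the loop CAGTGN, and the 5 bases that close the stem, G-T pairs included. In the sequences below, 5' to 3' on the mRNA strand with T for U, capitals mark the bulged C and the loop.
FTH1: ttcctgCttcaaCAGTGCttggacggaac
FTL: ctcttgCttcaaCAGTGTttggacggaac
SLC40A1: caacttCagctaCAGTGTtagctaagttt
TFRC 1: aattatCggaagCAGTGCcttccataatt
TFRC 2: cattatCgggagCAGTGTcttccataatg
TFRC 3: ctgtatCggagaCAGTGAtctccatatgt
TFRC 4: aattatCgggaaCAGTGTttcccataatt
SLC11A2: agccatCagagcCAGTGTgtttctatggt

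The 5' UTR held the match in both ferritins and in ferroportin. In GRCh38 coordinates, the FTH1 element lies at chr11:61967574-61967602 on the minus strand, its bulged C 171 bases before the start codon. The FTL element lies at chr19:48965335-48965363 on the plus strand, 167 bases before the start codon. The ferritin elements have 26 of 29 bases in common. The SLC40A1 element lies at chr2:189580661-189580689 on the minus strand, 223 bases before the start codon, and shares 13 of 29 bases with that of FTH1.

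In TFRC and SLC11A2, both uptake genes, the matches were in the 3' UTR. TFRC had 4 matches, on the minus strand of chromosome 3 in GRCh38. In transcript order they lie at chr3:196050979-196051007, chr3:196050575-196050603, chr3:196050510-196050538 and chr3:196050463-196050491. They share 18 to 25 of 29 bases with each other. The SLC11A2 match, at chr12:50988269-50988297 on the minus strand, had 1 unpaired stem position and lay 34 bases after the stop codon in 5 of 11 coding transcripts. The table has 1 value per gene, so these transcripts were not told apart from those without the element.

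Fully paired matches in a UTR were found for 4 of the 10 genes and for 0.816% of 19496 coding genes. With 1 unpaired position allowed, 7 of the 10 and 5.77% of all coding genes had a UTR match. The further 2 matches were in the 3' UTRs of ACO1 and IREB2. A match describes the letters only, and binding was not measured. STEAP3, NCOA4 and FBXL5 had no match in the transcripts searched.

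**Figure D1:**
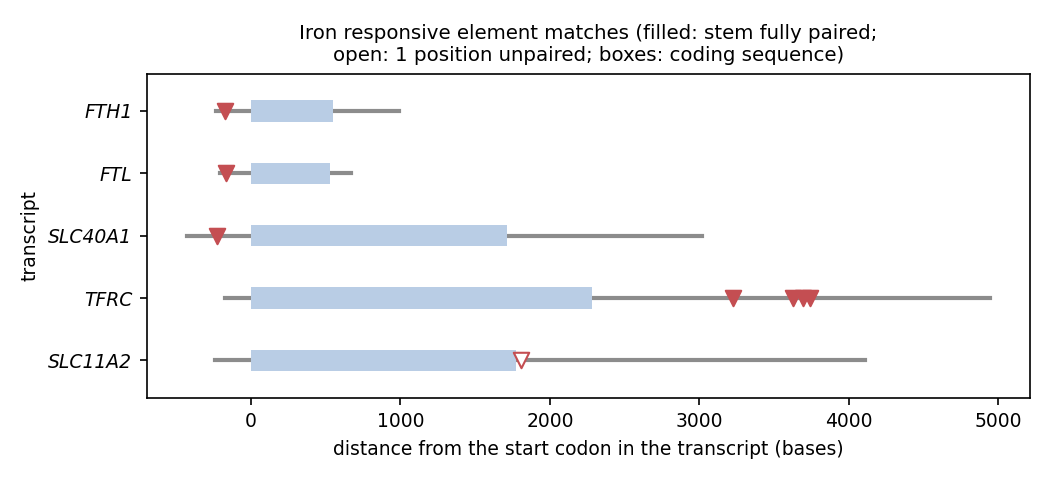
Positions of iron responsive element matches along the longest coding transcript with the match, in bases from the start codon, for 5 genes. Triangles lie before the coding box in FTH1, FTL and SLC40A1 and after it in TFRC, which has 4, and in SLC11A2.

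Between the conditions, 1 of the 10 iron genes was called. STEAP3, the endosomal reductase, was lower in siRNA, and none was called higher. Among all 24822 tested genes, 0.782% were called lower and 0.572% higher. Counting either direction, 1.39% of the 21820 tested genes averaging 1 FPKM or more were called, and all 10 iron genes are among these. At an unadjusted p under 0.05, 10.9% of all genes tested by Cuffdiff in the authors' deposited table passed, and of the 10 only STEAP3 did.

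The values of 6 genes were higher in siRNA and those of 4 lower. The median of the 10 changes was 0.18 on the log2(FPKM + 1) scale, which understates the change of low genes. The median of all tested genes was -0.01, and that of expressed coding genes was 0.03. For 9 genes the conditions stood within 1.5-fold of each other, and the smallest fold called for any gene with a value above 0 in both conditions was 1.53. Changes of 7 of the 10 were smaller than 0.28, the median absolute change of genes averaging 1 FPKM or more. A q-value above the threshold does not show that a gene was unchanged.

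**Figure D2:**
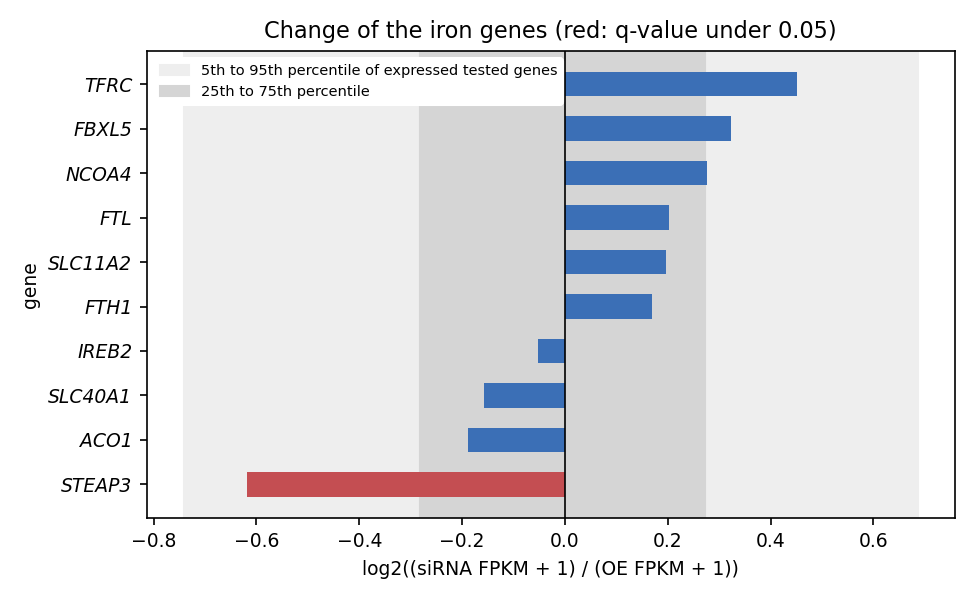
Bars give the log2(FPKM + 1) change, siRNA minus OE, of each iron gene, over shaded bands for all tested genes averaging 1 FPKM or more. STEAP3, at -0.62, is the only called gene, and TFRC has the highest value at 0.45. Every bar lies within the band from the 5th to the 95th percentile.

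The storage genes were the most abundant. FTL (ENSG00000087086, chromosome 19, 49468558 to 49470135, hg19), the light chain that favours iron mineral formation, was listed at 344 FPKM in OE against 396 in siRNA. Its mean stood above 98.4% of tested genes. FTH1 (ENSG00000167996, chromosome 11, 61717293 to 61735132, hg19), the heavy chain that oxidises iron, was listed at 94.4 and 106 FPKM. Per length, the FTL level was 3.64 times that of FTH1 in OE and 3.73 times in siRNA. The chains thus kept nearly the same proportion in both conditions, with changes of 0.20 for FTL and 0.17 for FTH1 on the log2(FPKM + 1) scale. The authors' deposited table gave p = 0.24995 for FTL and p = 0.455 for FTH1.

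Ferritin genes have many processed copies, and reads of near-identical sequence can be divided among them. The table lists 25 genes named FTH1P and 16 named FTLP, of which 7 and 2 were tested and none was called. The FTH1 copies summed to 12.7 FPKM in OE against 15.6 in siRNA, or 13.5% and 14.7% of the FTH1 level. FTH1P24, FTH1P3 and FTH1P1 were the highest, at 2.32, 1.59 and 1.67 FPKM in OE and at 2.85, 3.01 and 2.70 FPKM in siRNA. Those of FTL summed to 2.93% of the FTL level in OE and 2.11% in siRNA, led by FTLP8 at 5.25 and 4.93 FPKM and FTLP6 at 3.41 and 2.05 FPKM, followed by FTLP12 at 0.656 and 0.597 FPKM. The copies thus stood at a larger share of FTH1 than of FTL, and how reads were divided between gene and copies was not tested. The FTH1 locus in the table also spans BEST1, which was listed at 2.40 and 1.99 FPKM.

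NCOA4 (ENSG00000138293, chromosome 10, 51565108 to 51590734, hg19), the receptor that delivers ferritin to the lysosome so that its iron is released, was listed at 47.96 FPKM in OE against 58.3 in siRNA. This is a 1.21-fold higher value with p = 0.190 in the authors' deposited table, and NCOA4 was not called.

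Among the uptake genes, STEAP3 and TFRC had changes of opposite sign. STEAP3 (ENSG00000115107, chromosome 2, 119981384 to 120023228, hg19) reduces ferric iron in the endosome. It fell from 6.93 FPKM in OE to 4.16 FPKM in siRNA, 1.66-fold, with p = 0.00055 and q = 0.0443 in the authors' deposited table. This call was close to the threshold, since only 28 of the 336 called genes had a higher q-value and the highest q-value called was 0.0480. Its fold was below the median of 2.03 among called genes that were above 0 in both conditions. STEAP3 was a gene of middling level, with a mean above 46.7% of tested genes. The antisense gene STEAP3-AS1, in the same locus, was listed at 0.577 and 0.506 FPKM and was not tested by the authors. Strand handling in the counting is not given in the sources used here. In bulk RNA a lower level in every cell and fewer cells with the transcript cannot be told apart.

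TFRC (ENSG00000072274, chromosome 3, 195754054 to 195809060, hg19), the transferrin receptor, was listed at 54.8 FPKM in OE against 75.2 in siRNA. The 1.37-fold higher value was the most positive change among the 10, above 72.7% of the absolute changes of expressed genes, and it was not called, with p = 0.167 and q = 0.748 in the authors' deposited table. SLC11A2 (ENSG00000110911, chromosome 12, 51373184 to 51422349, hg19), the transporter DMT1 that moves ferrous iron out of the endosome, was listed at 41.2 and 47.4 FPKM and was not called, with p = 0.525 in the authors' deposited table. TFRC stood at 7.91 times the level of STEAP3 in OE and at 18.1 times in siRNA.

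SLC40A1 (ENSG00000138449, chromosome 2, 190425305 to 190448484, hg19), the iron exporter ferroportin, had the lowest level of the 10. It was listed at 3.15 FPKM in OE against 2.72 in siRNA, above 34.6% of tested genes, and was not called, with p = 0.797 in the authors' deposited table. Set by element class, the 3 genes with a 5' UTR element had changes of 0.17, 0.20 and -0.16 (FTH1, FTL and SLC40A1). Of the 4 genes with a 3' UTR match, TFRC at 0.45 and SLC11A2 at 0.20 had positive values, and ACO1 at -0.19 and IREB2 at -0.05 had negative ones, on the log2(FPKM + 1) scale. The matches of ACO1 and IREB2 each had 1 unpaired stem position, as had that of SLC11A2. They lay in 1 of 3 coding transcripts of ACO1 and in 1 of 2 of IREB2. Both classes thus had values of both signs. None of these genes was called.

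None of the 3 regulators was called, with values of IREB2 and ACO1 lower and of FBXL5 higher in siRNA. IREB2 (ENSG00000136381, chromosome 15, 78729773 to 78793798, hg19) encodes IRP2, which is controlled through its own degradation. It was listed at 65.8 FPKM in OE against 63.4 in siRNA, with p = 0.935 in the authors' deposited table. Its change of -0.05 was the smallest in size of the 10. ACO1 (ENSG00000122729, chromosome 9, 32384618 to 32454767, hg19) encodes IRP1, which acts as a cytosolic aconitase when it holds an iron-sulfur cluster. It was listed at 9.03 and 7.80 FPKM, with p = 0.255 in the authors' deposited table. Per length, IREB2 stood at 7.29 times the level of ACO1 in OE and at 8.13 times in siRNA.

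FBXL5 (ENSG00000118564, chromosome 4, 15606162 to 15739936, hg19), the iron-binding F-box protein that marks IRP2 for degradation when iron is plentiful, was listed at 32.2 FPKM in OE against 40.5 in siRNA, with p = 0.237 in the authors' deposited table. The locus in the table also spans FAM200B, at 10.5 and 16.1 FPKM, and BST1, at 1.86 and 1.37 FPKM, neither called. In the order of levels, from FTL down to SLC40A1, IREB2 and TFRC exchanged places between the conditions, and the others kept theirs. With no spread per sample, which neighbours in this order differ could not be tested.

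**Figure D3:**
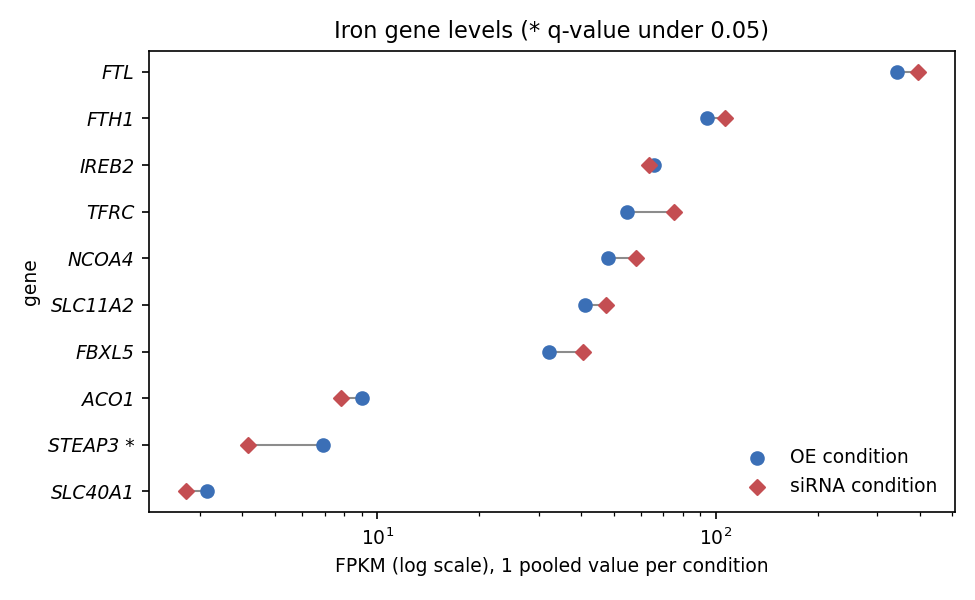
FPKM of each iron gene in the OE condition (circles) and the siRNA condition (diamonds) on a log axis, 1 pooled value each. FTL leads at 344 and 396 FPKM, SLC40A1 is lowest at 3.15 and 2.72 FPKM, and STEAP3, marked by an asterisk, is the one called gene.

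The iron genes differ in base content, and in this comparison changes went with base content across the transcriptome. When 12917 expressed coding genes were divided by GC content into 10 classes of near-equal size, the lowest class had a median change of 0.28 and the highest one of -0.23. GC content of the longest coding transcript ran from 38.3% in IREB2 to 56.9% in STEAP3. FTL, at 56.3%, is in the same class as STEAP3, where the median change was -0.11, yet the values of the 2 genes lay on either side of it, at 0.20 and -0.62. TFRC, at 41.5%, was in a class with a median of 0.16.

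After subtraction of the median of each gene's own class, STEAP3 stood at -0.51, FTL at 0.31 and TFRC at 0.29. On this scale SLC40A1 stood at -0.32, ACO1 at -0.33 and IREB2 at -0.33. The median over the 10 genes then was 0.0719 in place of 0.18. Of the 10 genes, 6 lay outside the middle 50% of their class, as 50% of any class does by definition. The part of base content in any single change was not tested.

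**Figure D4:**
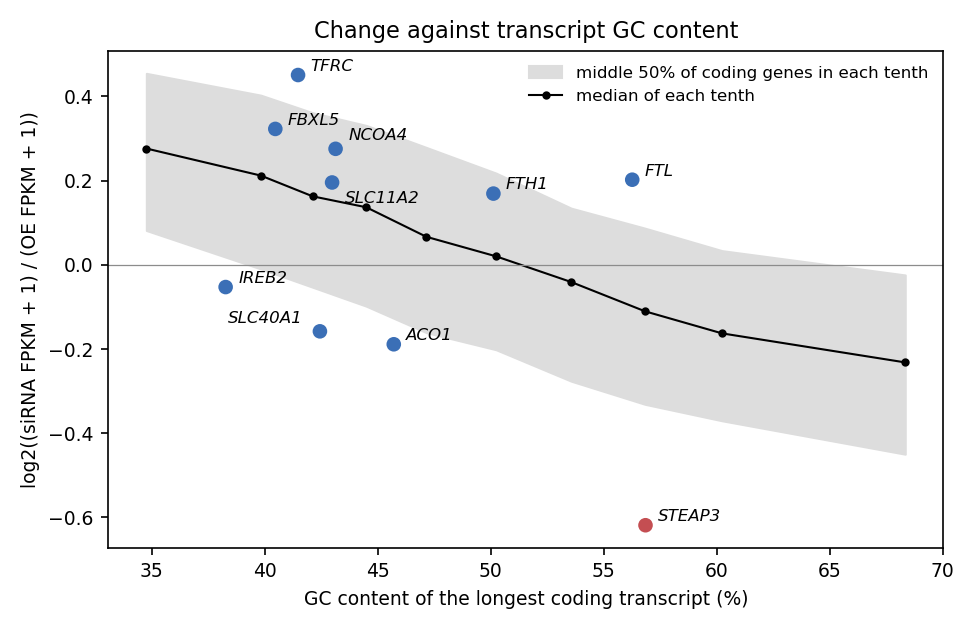
The log2(FPKM + 1) change of each iron gene against the GC content of its longest coding transcript, with the median (line) and the middle 50% (band) of expressed coding genes in each of 10 GC classes. STEAP3 (red) lies below the band and FTL above it at nearly the same GC content. TFRC is also above it, and IREB2, SLC40A1 and ACO1 lie below it at lower GC content.

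The study's title places CNBP binding in G-rich stretches near translation starts. Over up to 75 bases on each side of the start codon, G made up 20.7% in IREB2, 21.3% in FTL and 24.7% in FTH1. At the other end it made up 32.0% in NCOA4 and 39.3% in FBXL5. STEAP3, at 28.7%, was just below the median of 30% over all coding genes. The letters TGGAG occurred in that window, on the mRNA strand, in 4 of the 10 genes (FBXL5, FTL, NCOA4 and TFRC) and in 31.6% of coding genes. STEAP3 had none there. Binding of CNBP to these mRNAs was not measured in the table used here.

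In 8 wider lists of 84 iron and haem genes, 78 were tested, 1 rose and 3 fell, STEAP3 included, where 0.572% of all tested genes were called higher and 0.782% lower. Without the 10 iron genes, 68 were tested, 1 rose and 2 fell. The median change of these 68 was 0.01, against -0.01 over all tested genes. By list, the median ran from -0.05 for the genes around the iron regulatory proteins (IRP) to 0.17 for storage, and it was 0.01 for uptake, export and haem metabolism alike. FDX1 (chromosome 11, 110300607 to 110335605, hg19), a ferredoxin that passes electrons in mitochondria, rose from 3.88 to 6.78 FPKM, 1.75-fold, with q = 0.0134 in the authors' deposited table. It was the only call among 19 genes of mitochondrial iron import and iron-sulfur assembly. The GC content of its transcript is 42.0%.

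In haem metabolism 2 of 19 genes fell and none rose, beside 0.782% called lower and 0.572% called higher over all tested genes. UROS (chromosome 10, 127477146 to 127511817, hg19), which closes the ring of uroporphyrinogen III, fell from 17.4 to 9.65 FPKM, 1.80-fold. BLVRB (chromosome 19, 40953696 to 40971747, hg19), a biliverdin and flavin reductase, fell from 52.6 to 32.6 FPKM, 1.61-fold. Both had q = 0.0321 in the authors' deposited table. Their transcripts have a GC content of 51.4% and 63.3%. At an unadjusted p under 0.05 in the authors' deposited table, 4 of the 19 passed, as did 10.9% of all tested genes. The 2 beyond these calls were ABCB10, a mitochondrial transporter, at 32.7 and 46.3 FPKM, and FLVCR1, a choline and haem transporter, at 19.8 and 32.1 FPKM.

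The remaining lists held no call apart from STEAP3, the 1 of 9 tested genes of uptake and reduction that was called. None of 5 tested storage genes was called or had p under 0.05. PCBP2, an RNA-binding protein that also chaperones iron, was listed at 411 and 416 FPKM. None of 7 genes around the iron regulatory proteins was called or had p under 0.05, with SKP1, a subunit of the FBXL5 ubiquitin ligase, at 182 and 207 FPKM. Of 6 tested genes of export and the hepcidin axis none was called and 2 had p under 0.05. NEO1, a receptor that takes part in hepcidin control, was listed at 40.1 and 52.6 FPKM. BMP6, a ligand of that pathway, was listed at 7.01 and 12.9 FPKM with p = 0.201 in the authors' deposited table. None of 5 further genes with a known iron responsive element was called or had p under 0.05, with the kinase gene CDC42BPA at 39.0 and 39.6 FPKM. None of 9 genes of cytosolic iron-sulfur assembly was called and 1 had p under 0.05. In this list MMS19 was listed at 67.7 and 75.9 FPKM and FAM96B at 42.97 and 47.8 FPKM.

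**Figure D5:**
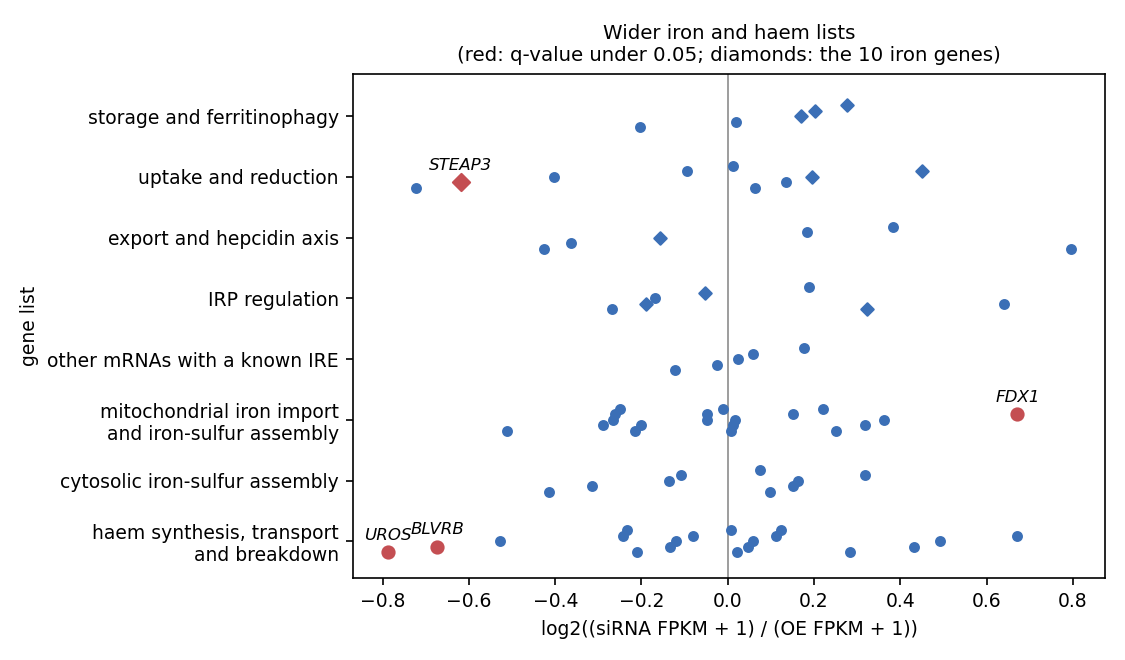
The log2(FPKM + 1) change of each tested gene in 8 iron and haem lists, with called genes in red and the 10 iron genes as diamonds. Called genes are STEAP3, UROS and BLVRB on the lower side and FDX1 on the higher side; each list has points on both sides of 0.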

How the data were processed

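Per the submitters' processing notes, TopHat, Cufflinks and Cuffdiff were used with hg19. The sources used here give no versions, settings, gene annotation or strand handling. The authors deposited 1 FPKM per gene for each of 2 conditions, and their comparison adds p-values and q-values. By their status column 24822 genes were tested, 38171 were not, 613 had too little data and 49 too much. Their own log2 fold column was damaged by a spreadsheet and was not used.

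Changes were recomputed as log2(FPKM + 1), siRNA minus OE. Calls rest on the authors' q-values across all tested genes; with 1 value per condition no other test across genes could be run. Locus starts are printed with 1 added, since the 28 mitochondrial genes that have their own locus then matched the annotation. GENCODE 29 (GRCh38) gave transcripts, by gene ID, or by symbol for NCOA4. Hairpins were sought in all coding transcripts with annotated start and stop codons, and base content was taken from the longest per gene. The hairpin search and the adjustments were tested on simulated data. The p-value adjustment was given planted p-values far below the threshold, so weak changes were not covered. The check of GC centring could not fail, since it looked only for the class medians that centring subtracts. The planted hairpins followed the search pattern with fully complementary stems. Stems with G-T pairs or an unpaired position, and false matches, were not tested this way.

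The members and lists were chosen with earlier results of these data known. Named genes are CNBP, the 10 members, the called genes of each list or else its 2 with the highest mean FPKM, and the 3 highest ferritin copies per family, of which 1 list gene is not reported here; VIM, NEFL, KRT18, BEST1, STEAP3-AS1, FAM200B, BST1, ABCB10 and FLVCR1 were added after their values were seen. Alternatives changed the threshold, filters, adjustment, pseudocount and scaling. Python 3.11.15, numpy 2.4.6 and pandas 2.3.3 were used.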

Additional observations from a re-analysis of the deposited data

How the results depend on the processing

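The STEAP3 call was lost at a q-value under 0.01, where 0 of the 10 genes remained, and with a mean of at least 10 FPKM, where STEAP3 itself is filtered out and 0 were called. It held with the adjustment recomputed over genes averaging 1 FPKM or more, where its adjusted value was 0.0430. A q-value under 0.1 and a 1.5-fold filter could not remove the call, given its q = 0.0443 in the authors' deposited table and its 1.66-fold change. No iron gene was called higher under any of these. In the wider lists a q-value under 0.01 left 0 higher and 0 lower calls, and one under 0.1 gave 1 and 4. The STEAP3 change ran from -0.51 to -0.73 over the pseudocounts, scalings and GC centring tried. The median change of the 10 genes lay between 0.12 and 0.26 over the pseudocounts and scalings and at 0.0719 after centring on GC content, an alternative chosen after seeing the data. The cause was not tested. IREB2 alone changed sign, from -0.05 to 0.03 when both conditions were scaled to the same summed FPKM over loci above 300 bp. No paired analysis was possible because only pooled values were at hand, and leaving out a replicate was not run for the same reason. Depth per sample is unknown.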

Other observations

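These values were chosen after they were seen. The loci of 2 uptake genes also hold short RNA genes whose listed values differed more than those of their hosts. RNU7-18P, a U7 pseudogene at the TFRC locus, was listed at 0 in OE and 126 FPKM in siRNA and was not tested by the authors. A U6 entry at the SLC11A2 locus was listed at 10.7 and 40.3 FPKM and was not called, with p = 0.60045 in the authors' deposited table. The FPKM of such short genes depends strongly on the length correction.

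Outside the 10 genes, 9 of the 68 tested genes of the wider lists had p under 0.05 in the authors' deposited table. The share over all tested genes was 10.9%. Of the 9 genes, 6 were not called. ABCB10 and FLVCR1, described above, had higher values in siRNA, and the other 4 had lower ones. TF, which encodes transferrin, was listed at 1.91 and 0.766 FPKM with q = 0.0586, and HAMP, which encodes hepcidin, at 1.27 and 0.692 FPKM with q = 0.154. HFE, a partner of the transferrin receptor, was listed at 1.48 and 0.928 FPKM, and NDOR1, a diflavin reductase of cytosolic iron-sulfur assembly, at 8.89 and 6.42 FPKM. Of 5 macrophage and blood markers, 2 averaged 1 FPKM or more, and the list summed to 26.9 and 25.5 FPKM. CD163, a macrophage receptor for haemoglobin, was listed at 24.4 and 23.1 FPKM, while the leukocyte gene PTPRC was listed at 0.125 and 0.117 FPKM.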
